A study of Mus musculus with 5 samples.

Results

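Plasma cells are the antibody-secreting end stage of the B cell lineage, and those described here came from colon tumors and from normal colon of mice. The members were chosen by measured values of 5 genes. A cell was counted as a plasma cell when it held at least 2 UMIs (unique molecular identifiers, each standing for 1 captured RNA molecule) of Mzb1 and Derl3 together, and at least 20 UMIs of Jchain, Igha and Igkc together. This rule found 146 plasma cells among 8491 cells with at least 500 detected genes and at most 15% mitochondrial counts, 112 of them in tumors and 34 in normal colon. The data were inDrop single-cell RNA-seq libraries, in which droplets capture cells and the 3′ ends of their RNA are counted. Of the 5 libraries, 4 came from tumors that azoxymethane and dextran sulfate sodium (AOM/DSS) had induced in wildtype (WT) mice treated with 5FU and Irinotecan, at day 1 (replicates 1 and 2), day 3 and day 6. The mice were C57BL/6J or of mixed C57BL/6J;129 background per the study's methods, and treatment came in 3 cycles. The remaining library was made from untreated wildtype colon by a dissociation for fibroblasts that removes the crypts first, and is called normal stroma here. The tumor preparation kept what a filter retained as epithelial crypts and discarded what passed it, so the share of immune cells depends on the preparation, and treatment, tumor and dissociation cannot be told apart between the tumor and normal libraries. The day 1 libraries form the early group and days 3 and 6 the late group, and the sources differ on whether the days count from the start of treatment or after its last cycle. The study calls the day 1 replicates biological replicates, while the labels name no animals.

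In the gut, plasma cells sit in the lamina propria beneath the epithelium, where most of them make dimeric IgA. The J chain joins IgA molecules, and epithelial cells then carry the dimers into the lumen. To make antibody at this rate the cells expand the endoplasmic reticulum under the transcription factor Xbp1, lose the B cell program under Prdm1 (Blimp-1) and Irf4, enter the colon with the chemokine receptor Ccr10 and the integrin subunits Itga4 and Itgb7, and depend on survival signals through Tnfrsf17 (BCMA) and Tnfrsf13b (TACI).

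The libraries held 752, 2450, 1419, 2830 and 1108 barcodes in the order day 1 replicates 1 and 2, day 3, day 6 and normal stroma, of which 748, 2403, 1419, 2826 and 1095 passed the cell filter, with a median of 2903 to 3601 UMIs per cell. Pairs of libraries shared 4 to 42 barcodes, and 4 plasma cells had a barcode that another library also held, but none was a plasma cell in both. The day 1 and normal stroma libraries expressed the Y-linked genes Eif2s3y and Ddx3y and day 3 and day 6 expressed Xist, so the sex of the mice cannot be told apart from early against late. Day 1 replicate 1 and day 3 had the single index library structure and the other 3 the dual index structure.

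The rule genes set the plasma cells apart, and the values that follow describe the choice and test nothing. The median plasma cell held 3499, 3264, 2941 and 2544 UMIs of Jchain, Igha and Igkc together in day 1 replicate 1, day 1 replicate 2, day 6 and normal stroma, against 9, 5, 24 and 3 in the other cells. These 3 genes made up a median of 41.4, 37.2, 42.5 and 44.5% of the UMIs of a plasma cell. Single cells ranged from 0.271% to 63.3% in day 1 replicate 1 and from 0.461% to 61.4% in day 6. The plasma cells were also larger libraries than the rest, with a median of 9490, 11150, 8406 and 5856 UMIs against 2919.5, 3572, 2814 and 2951. They held 68.9, 75.4, 67.5 and 92.2% of all UMIs of the 3 genes in their libraries, and the remainder lay in cells that were not plasma cells by this rule.

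The threshold on immunoglobulin was often met by other cells. In the day 6 library 1648 other cells (60.1%) reached 20 UMIs, against 197 (26.7%) in day 1 replicate 1, 5.53% in day 1 replicate 2 and 2.64% in normal stroma. All 84 cells of day 6 and all 10 of day 1 replicate 1 with at least 2 UMIs of Mzb1 and Derl3 became plasma cells. Just inside the rule stood 21 cells over all libraries with exactly 2 UMIs of Mzb1 and Derl3, and just outside it stood 167 cells with exactly 1 and enough immunoglobulin, 146 of them in day 6. The label plasma cell was carried unequally. In 126 of the 146 cells immunoglobulin took at least 10% of UMIs, and 20 cells stood below 10%, 16 of them in day 6. In day 6 these 16 cells had an Mzb1 level of 224 CPM (UMIs per 1000000 UMIs of the summed cells) against 2062 CPM in the other 68, and an Xbp1 level of 334 against 2563 CPM. Their columnar epithelial markers reached 15853 CPM against 3257 CPM, and 8 of the 16 held at least 2 UMIs of B cell markers. The day 6 plasma cell with the most UMIs (55480) held 1132 UMIs of columnar epithelial markers and 0.488% immunoglobulin. Doublets were not removed, and several values that these 20 cells move are given with and without them below.

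**Figure D1:**
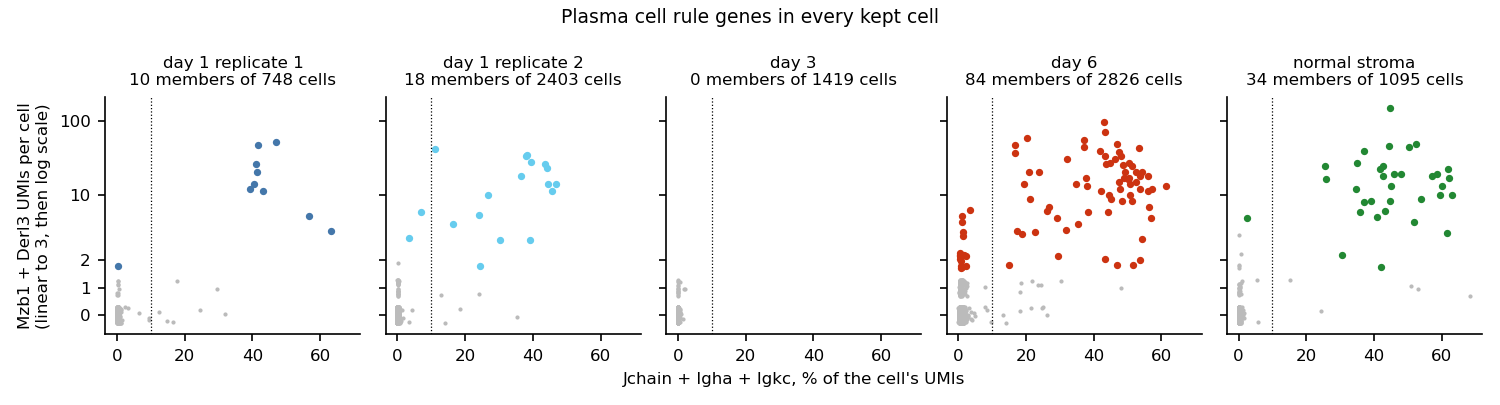
Each point is a kept cell, with its share of UMIs from Jchain, Igha and Igkc on the x axis (%) and its Mzb1 and Derl3 UMIs on the y axis (linear to 3, log scale above, points below 10 spread slightly for view), in 1 panel per library. Colored points are the plasma cells (10, 18, 0, 84 and 34), gray points all other cells, and the dotted line marks 10% immunoglobulin, left of which lie 20 plasma cells.

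Plasma cells made up 1.34% of the cells of day 1 replicate 1 (10 of 748, exact 95% binomial interval 0.643 to 2.44%). In day 1 replicate 2 they made up 0.749% (18 of 2403, 0.445 to 1.18%), and in day 6 2.97% (84 of 2826, 2.38 to 3.67%). No cell of day 3 met the rule (0 of 1419, interval 0 to 0.26%, while the 3 counts that a 0 allows give a share of up to 0.211%). In normal stroma the share was 3.11% (34 of 1095, 2.16 to 4.31%). These intervals and floors cover counting error only. The 2 late libraries thus held the lowest and the highest share of the tumor libraries, with both day 1 libraries between them. The mean was 1.04% in the 2 early and 1.49% in the 2 late libraries, a difference of 0.443 percentage points (exact permutation test, two-sided, p = 1, n = 2 against 2, where the smallest possible p is 0.33), so no difference between early and late was detectable. Without the 20 cells of low immunoglobulin the shares were 1.2, 0.666, 0, 2.41 and 3.01% in the order of the libraries. Thinned to 1000 UMIs per cell, with at least 1 UMI of Mzb1 and Derl3 and 10 of immunoglobulin, they were 0.936, 0.541, 0.0705, 3.65 and 3.36%.

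The rule genes were also low in the day 3 library as a whole, which restates the choice of cells. Over its 1419 cells the day 3 library held 9 UMIs of Mzb1 and 9 of Derl3, each in 9 cells, 38 UMIs of Jchain and 152 UMIs of Igha. Igkc reached 2255 UMIs in 788 cells. The day 3 cell with the most immunoglobulin had 443 UMIs of the 3 genes, of which 389 were Igkc, with 1 UMI of Mzb1, none of Derl3 and 69 UMIs of the columnar keratin Krt8. No cell met the rule for B cells there (at least 1 UMI of Ms4a1 and 3 of Cd79a, Cd79b and Ms4a1), and Ms4a1, which encodes CD20, had 0 UMIs in the library. How many plasma cells the crypt filter retained was not measured.

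B cells were counted to relate the plasma cells to their own lineage. There were 1, 1, 0, 30 and 9 B cells in day 1 replicate 1, day 1 replicate 2, day 3, day 6 and normal stroma. Plasma cells accordingly made up 90.9% of plasma and B cells in day 1 replicate 1 (58.7 to 99.8%), 94.7% in day 1 replicate 2 (74 to 99.9%), 73.7% in day 6 (64.6 to 81.5%) and 79.1% in normal stroma (64 to 90%). Plasma cells outnumbered B cells in all 4, and day 6 lay 19.1 percentage points below the mean of day 1 (exact permutation test, two-sided, p = 0.33, n = 2 against 1, the smallest p possible). The day 6 interval overlapped those of both day 1 libraries. With a single UMI of Mzb1 or Derl3 accepted, this difference turned to 1.125 percentage points in the other direction.

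**Figure D2:**
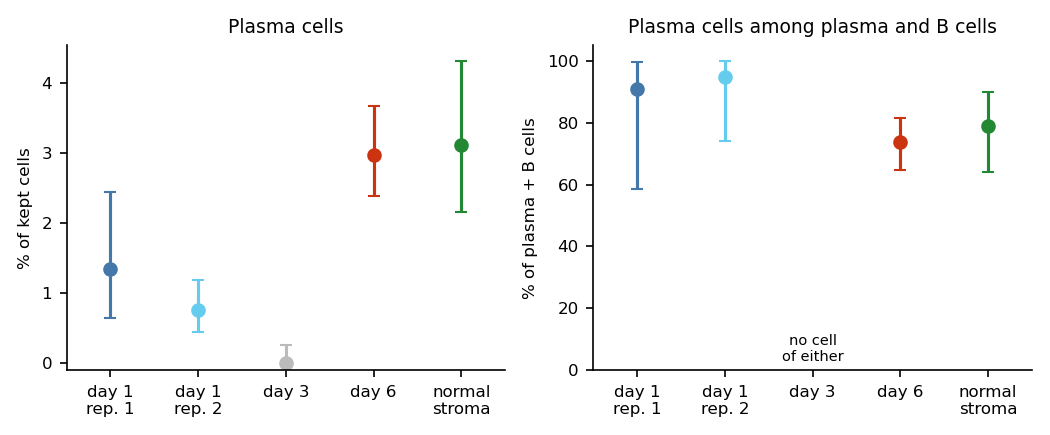
The left panel plots plasma cells as a share of the kept cells (%) and the right panel plasma cells as a share of plasma and B cells (%), for each library on the x axis. Points are the shares and bars exact 95% binomial intervals, which do not overlap between day 3 (0%) and any other library on the left and overlap between all libraries with a value on the right.

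Isotype use was read from the heavy chain constant genes, with each cell of at least 5 such UMIs given to its highest class. Igha, the constant gene of IgA and part of the rule, led in 133 of 141 such plasma cells. All 9 classed cells of day 1 replicate 1 and all 18 of day 1 replicate 2 were IgA (100%, exact 95% intervals from 66.4% and from 81.5%). Day 6 had 73 IgA cells of 80 (91.2%, 82.8 to 96.4%), 4 IgM, 2 IgG and 1 of another class, and normal stroma had 33 IgA cells of 34 (97.1%, 84.7 to 99.9%) and 1 IgM. The share of IgM cells was 5 percentage points and that of IgG cells 2.5 points higher in day 6 than in day 1, where both were 0 (exact permutation test, two-sided, p = 0.33 for each, raw and adjusted over the 2, n = 2 against 1, the smallest p possible). The exact intervals of the day 1 libraries reach up to 33.6 and 18.5% for each class, so a share like that of day 6 was not detectable as a difference at this number of cells. Counted without Igha in the rule, the classes were the same in number.

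Of the 8 plasma cells that were not IgA, 2 carried a plasma cell's load of immunoglobulin, both in day 6. The first was an IgG cell with 2219 UMIs of Ighg2c, the constant gene of IgG2c, against 21 UMIs of Igha. It alone gave 2219 of the 2253 Ighg2c UMIs of the day 6 plasma cells. The second was an IgM cell with 523 UMIs of Ighm and 16 of Igha. The remaining 6 had under 10% immunoglobulin and at most 2 UMIs of Jchain and 1 of Xbp1. Among all 8, 6 held a UMI of Ms4a1. Without the cells of low immunoglobulin, day 6 had 1 IgM and 1 IgG cell among 68. A single cell of normal stroma had 119 UMIs of Ighg2c beside 1525 of Igha, and a single cell of day 1 replicate 2 had 101 UMIs of Ighm beside 2218 of Igha. In other cells with at least 10 UMIs of columnar markers, Igha stood at 193, 194, 879 and 183 CPM in the 4 libraries, in the same order. In plasma cells it stood at 92485 to 149313 CPM. Ighg2c in these other cells reached 42.6 CPM in day 6 and 0 in the other 3. The cut took 604, 2041, 2491 and 396 cells, most of the other cells in each tumor library. Most tumor plasma cells also pass it, so these cells may include ones that are not epithelium.

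**Figure D3:**
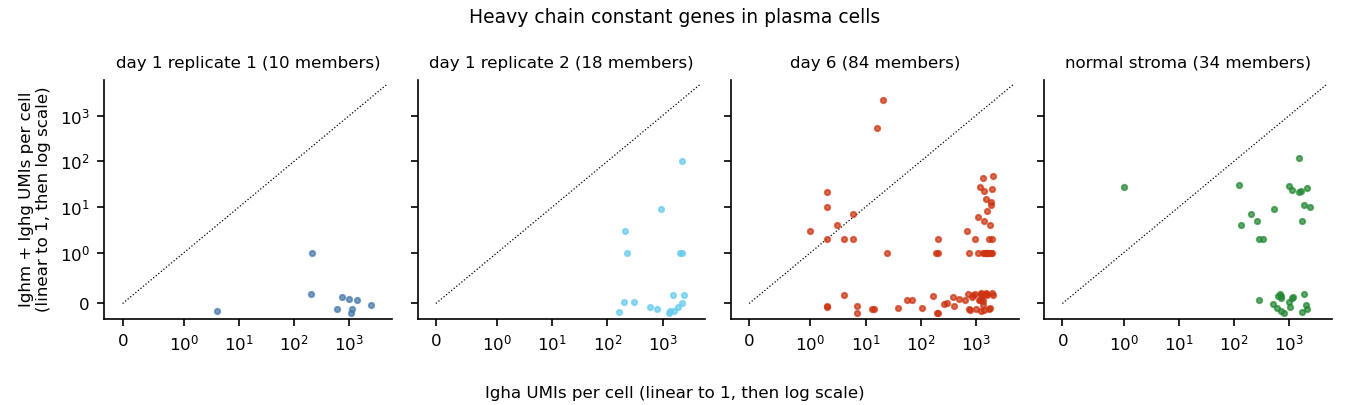
Each point is a plasma cell, with its Igha UMIs on the x axis and its Ighm and Ighg UMIs on the y axis (both linear to 1, log scale above), in 1 panel for each library with plasma cells. Points above the dotted line have more IgM or IgG than IgA, and the 2 highest in day 6 (2219 UMIs of Ighg2c and 523 of Ighm) stand far from the rest, most of which lie under 50 on the y axis.

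Light chains were nearly all kappa. Igkc, the kappa constant gene and part of the rule, exceeded the lambda genes Iglc1, Iglc2 and Iglc3 in 141 of 146 plasma cells. Lambda led in 0 of 10 cells of day 1 replicate 1, in 2 of 18 of day 1 replicate 2 (11.1%, 1.38 to 34.7%), in 3 of 84 of day 6 (3.57%, 0.743 to 10.1%) and in 0 of 34 of normal stroma (at most 10.3%). All these intervals overlap. The 5 lambda cells had 1522 and 280 lambda UMIs in day 1 replicate 2 and 1509, 1043 and 386 in day 6, against 2 to 189 UMIs of Igkc. In 4 of them the lambda UMIs were almost all Iglc1, whereas the smaller cell of day 1 replicate 2 had 187 of Iglc2, 93 of Iglc3 and none of Iglc1. No cell of normal stroma was lambda, yet 3 of them held 102 to 230 lambda UMIs beside 564 to 1215 of Igkc.

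Variable genes were sparse. The method counts 3′ ends and the variable segment lies at the 5′ end of the transcript. A leading kappa variable gene with at least 3 UMIs was found in 1, 3, 30 and 23 plasma cells of day 1 replicate 1, day 1 replicate 2, day 6 and normal stroma. Across these 57 cells 34 different Igkv genes led, and 8 of them led in more than 1 library. Igkv1-110 was the most common in normal stroma (5 of 23 cells) and Igkv1-135 in day 6 (3 of 30). Thinned to 23 cells, the effective number of kappa genes (inverse Simpson index) was 16.9 in day 6 and 10.4 in normal stroma. Heavy chain variable genes led in only 13 cells, with 12 different genes. With at least 10 UMIs asked for, 0, 2, 4 and 8 cells kept a leading kappa gene, so this diversity is a description with no test. Some Igkv genes are near-identical to each other, and the counting could split or move their reads.

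Of 20 plasma cell genes outside the rule, 19 had at least 10 UMIs and 12 stood at least 2 times above the other cells in each of the 4 libraries (20 CPM added to both levels). These values come from the cells the rule chose and are given without a test. Xbp1, which drives the secretory program, reached 1509, 2507 and 2022 CPM in the tumor libraries (day 1 replicate 1, day 1 replicate 2 and day 6, the order kept for all genes below) and 2050.3 CPM in normal stroma, against 146 to 275 CPM in the other cells of these libraries. Irf4, a transcription factor of plasma cell commitment, reached 115, 189 and 188 CPM and 290.4 CPM, against 0.597 to 7.19 CPM. Prdm1, the repressor of the B cell program, stood at 136, 131 and 85.1 CPM and 78 CPM, and Txndc5, a disulfide isomerase of the endoplasmic reticulum, at 1027, 1389 and 700.1 CPM and 1344 CPM. The tumor and normal values of Xbp1 overlapped, with normal stroma inside the range of the tumor libraries. Sdc1, which encodes the surface marker CD138, stood at 314, 242 and 209 CPM and 568 CPM, but the other cells reached 139 to 296 CPM, within 2 times of the plasma cells in each tumor library. Of 14 genes of the B cell program, 12, 10, 0 and 3 were at 0 UMIs in the plasma cells of day 1 replicate 1, day 1 replicate 2, day 6 and normal stroma. Ms4a1 was at 0 in both day 1 libraries, at 18.1 CPM in day 6 and at 4.33 CPM in normal stroma. Without the 20 cells of low immunoglobulin 12, 10, 2 and 6 of the 14 genes were at 0, and Ms4a1 was at 7.36 CPM in day 6 and 0 in normal stroma. Cd79a, a signaling chain of the B cell receptor that plasma cells can keep, stood at 314, 203 and 280.3 CPM and 273 CPM.

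Tnfrsf13b (TACI) was at 199, 223 and 204 CPM in the tumor libraries and 299 CPM in normal stroma, against 2.11 to 6.51 CPM in other cells. Tnfrsf17 (BCMA), the receptor for APRIL, was at 52.4, 77.4 and 54.4 CPM and 165 CPM (exact 95% Poisson interval 117 to 226), against 0 to 1.26 CPM. Cd28, a costimulatory receptor that long-lived plasma cells also carry, was at 94.3, 43.6 and 48.8 CPM and 178 CPM. The gut and skin homing receptor Ccr10 was at 189, 165 and 119 CPM and 520.1 CPM (431 to 622), while it hardly occurred in other cells (0.181 to 2.16 CPM). A UMI of Ccr10 was found in 60, 61.1, 45.2 and 76.5% of the plasma cells. For Tnfrsf17, Cd28 and Ccr10 normal stroma was above each of the 3 tumor libraries. Itga4 was at 115, 159.7 and 127 CPM and 229.7 CPM, and Itgal, a subunit of the integrin LFA-1, at 73.4, 111 and 141 CPM and 139 CPM, with normal stroma inside the range of tumors for Itgal. Ccr9, the receptor for small intestinal homing, had 29 UMIs in 16 plasma cells, and Itgb7 25 UMIs in 21.

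**Figure D4:**
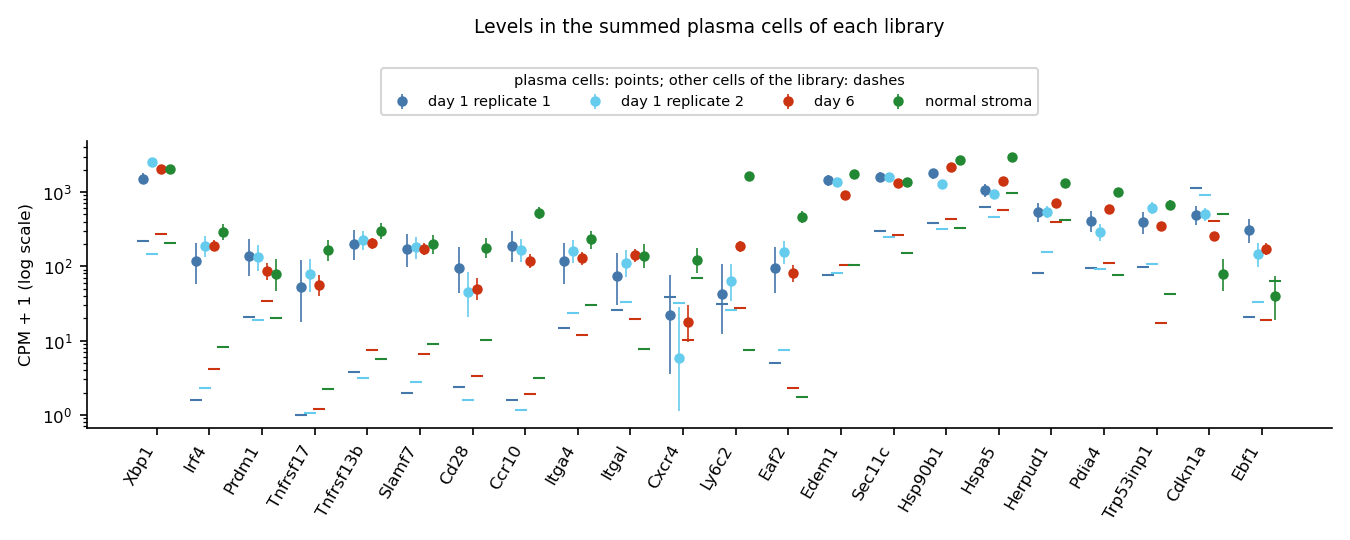
Points are the levels of 22 genes (x axis) in the summed plasma cells of each library, in CPM plus 1 on a log axis, with exact 95% Poisson intervals, and dashes are the other cells of the same library. Ccr10, Eaf2 and Ly6c2 in normal stroma (520, 459 and 1651 CPM) lie above the 3 tumor libraries, and Cdkn1a lies below the other cells in each library.

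The unfolded protein response widens the folding capacity of the endoplasmic reticulum. Of the 26 genes of the response, 25 had at least 10 UMIs and 7 stood at least 2 times above other cells in all 4 libraries. The list summed to 12002, 10894 and 13283 CPM in the plasma cells of the tumor libraries and 19159 CPM in normal stroma, against 4064 to 5599 CPM in other cells. Hsp90b1, the chaperone GRP94, was at 1772, 1268 and 2199 CPM and 2657 CPM, against 319 to 427 CPM. Hspa5, the chaperone BiP, was at 1059, 929 and 1421 CPM and 2974 CPM (2755 to 3205), with normal stroma more than 2 times above the highest tumor library once 20 CPM were added to both. The other cells of normal stroma also held more Hspa5 (973 CPM) than those of the tumors. Edem1, which sends misfolded glycoproteins to degradation, was at 1447, 1374 and 905 CPM and 1725 CPM. Pdia4, a disulfide isomerase, was at 409, 286 and 591 CPM and 1001 CPM, and Herpud1, part of the degradation complex, at 535, 542 and 708 CPM and 1313 CPM, again highest in normal stroma. Creld2, a secreted chaperone, was at 178, 87.1 and 162 CPM and 273 CPM. Of 33 genes of the translocon and secretory pathway, 4 stood at least 2 times above other cells in all libraries, among them Sec11c, the catalytic subunit of the signal peptidase (1583, 1583 and 1319 CPM and 1374 CPM, against 150.2 to 298 CPM). Normal stroma lay inside the range of the tumors for Sec11c.

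The promoters of 4 of these endoplasmic reticulum genes are shown because they share a sequence element. Hspa5, Hsp90b1 and Creld2 were higher in plasma cells than in the other cells of each library, while Derl3 is a rule gene and was high by the choice of cells. They are RefSeq promoters on build GRCm38.p6, from 250 bases before to 50 bases after the gene's start, 5′ to 3′ on the gene's strand. Capitals mark the ER stress response element, searched on both strands as CCAAT, then any 9 bases, then CCACG.
Derl3 (chr10:75893148-75893447, plus strand): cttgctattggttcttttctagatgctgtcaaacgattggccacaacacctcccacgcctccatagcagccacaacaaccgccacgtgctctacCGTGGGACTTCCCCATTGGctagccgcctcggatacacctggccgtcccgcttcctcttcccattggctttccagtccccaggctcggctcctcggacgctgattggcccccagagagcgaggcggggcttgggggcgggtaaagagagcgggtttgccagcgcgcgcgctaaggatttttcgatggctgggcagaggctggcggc
Hspa5 (chr2:34771840-34772139, plus strand): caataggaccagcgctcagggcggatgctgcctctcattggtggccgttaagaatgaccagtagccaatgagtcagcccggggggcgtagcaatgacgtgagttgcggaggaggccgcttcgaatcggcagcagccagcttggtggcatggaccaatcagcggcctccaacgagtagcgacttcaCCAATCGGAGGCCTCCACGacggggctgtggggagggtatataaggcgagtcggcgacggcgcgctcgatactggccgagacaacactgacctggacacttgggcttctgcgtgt
Hsp90b1 (chr10:86705395-86705694, minus strand): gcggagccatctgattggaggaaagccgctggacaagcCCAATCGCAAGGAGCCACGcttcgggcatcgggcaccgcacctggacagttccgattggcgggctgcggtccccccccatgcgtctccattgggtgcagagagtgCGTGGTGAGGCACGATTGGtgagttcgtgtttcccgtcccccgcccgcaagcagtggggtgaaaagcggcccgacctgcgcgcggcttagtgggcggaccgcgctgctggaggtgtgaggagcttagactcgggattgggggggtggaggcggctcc
Creld2 (chr15:88819396-88819695, plus strand): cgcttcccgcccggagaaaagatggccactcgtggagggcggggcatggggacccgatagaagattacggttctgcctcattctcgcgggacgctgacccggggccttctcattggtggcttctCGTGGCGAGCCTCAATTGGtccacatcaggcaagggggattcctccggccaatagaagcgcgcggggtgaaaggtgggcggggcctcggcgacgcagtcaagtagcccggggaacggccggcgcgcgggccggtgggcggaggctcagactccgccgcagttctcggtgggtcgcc
The element occurred once in Derl3, Hspa5 and Creld2 and at 2 places, one on each strand, in Hsp90b1. It was found in 39 of 32851 promoters of this length (0.119%) and in 8 of the 23 genes of the unfolded protein response list that had a promoter in the table, namely Hspa5, Hsp90b1, Dnajc3, Creld2, Pdia6, Calr, Canx and Syvn1. Derl3, a rule gene that retrieves misfolded proteins from the endoplasmic reticulum, is not on that list. Not all genes with the element were high in plasma cells, since Canx was at 231, 145 and 128 CPM and 191 CPM against 207 to 263 CPM in other cells. A match is a description of the sequence and does not show that a factor binds there.

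Expression at day 6 was compared with day 1 on counts summed over the plasma cells of each library (95399 and 206632 UMIs in day 1, 717059 in day 6). This stands for late against early, as day 3 had no plasma cells. The day 6 library is alone, so the test assumes that it varies like the 2 day 1 libraries, which leave 1 residual degree of freedom. With edgeR's quasi-likelihood test and Benjamini-Hochberg adjustment, 121 of 4271 genes (2.83%) were called at an adjusted p below 0.05, 65 higher (1.52%) and 56 lower (1.31%) at day 6. DESeq2 called 22. The genes called were mostly ones that the other cells of the libraries expressed too. In 107 of the 121 the mean level in plasma cells, relative to the other cells, was below 1. In 118 of the 121 the other cells differed between day 6 and day 1 in the same direction, and in 111 by at least 2 times. Over all genes tested, the other cells differed in the same direction in 76.2% and by at least 2 times for 429 of the 4271. The part of RNA from other cells in these calls was not tested.

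Among the 10 genes with the largest rise, 9 were below the level of the other cells. Ltf (lactoferrin) was at 10.5 and 4.84 CPM in the day 1 libraries and 576 CPM at day 6 (log2 fold change 6.46, SE 0.88, adjusted p = 2.58e-10, edgeR), and the other cells held 30.8, 56.6 and 1671 CPM. Clca4b, a gene of surface colonocytes, was at 0 and 4.84 CPM in the day 1 libraries and 386 CPM at day 6 (log2 fold change 6.85, SE 0.93, adjusted p = 2.58e-10, edgeR), and the other cells held 77.9, 119 and 843 CPM. Atp12a, Cyp2f2 and Plet1 rose by log2 fold changes of 5.58, 5.22 and 5.10 (edgeR). Ido1, Xist, Ceacam20 and Iigp1 had no UMI in day 1 and stood at 76.7 to 96.2 CPM at day 6, at least 7.72-fold to 9.69-fold higher when day 1 is set to the 3 counts that a 0 over both libraries allows. Ido1, an interferon-induced enzyme, had an adjusted p of 8.30e-04 (edgeR) and 2.19, 4.22 and 121 CPM in the other cells. Ighg2c rose as well (log2 fold change 9.88, SE 1.02, adjusted p = 3.14e-18, edgeR), through the single IgG cell. Among the 10 with the largest fall were the WNT pathway genes Wif1, Nkd1, Notum and Dkk2. All 10 had no UMI at day 6. Wif1, a secreted WNT inhibitor, was at 692 and 247 CPM in the day 1 libraries and 0 CPM at day 6, at least 112-fold lower at a floor of 3 counts (adjusted p = 2.58e-10, edgeR), and in the other cells at 612, 357 and 8.27 CPM. The Y-linked Eif2s3y and Ddx3y were 2 more, and Mt4, Pnliprp2, Ascl4 and Cep112 the rest. Without the 20 cells of low immunoglobulin 47 genes were called, 43 of them among the 121, and Xist, Atp12a, Plet1, Eif2s3y and Ddx3y lost their calls, while 9 of the 20 named genes were then too low to be tested.

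**Figure D5:**
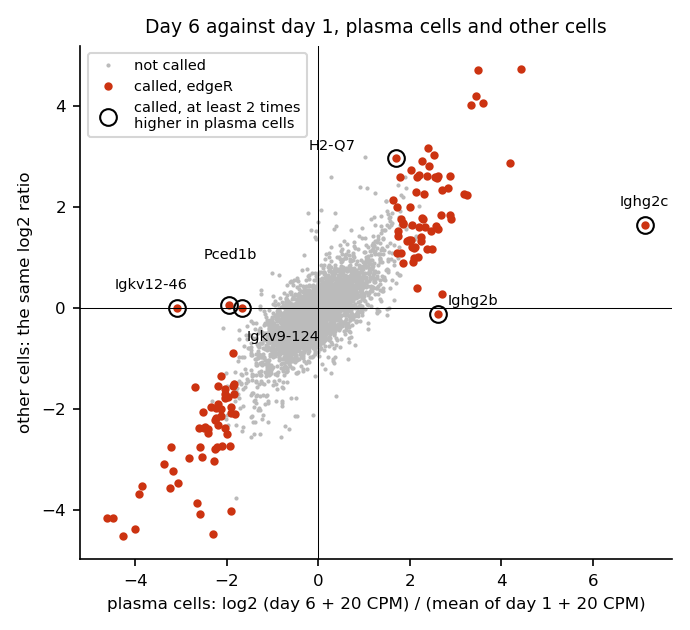
Each point is 1 of 4271 genes, with its log2 ratio of day 6 to the mean of day 1 in plasma cells on the x axis and the same ratio in all other cells on the y axis (20 CPM added). Red points are the 121 genes called by edgeR, of which 118 have the same sign on both axes, and circles mark the 6 that were at least 2 times higher in plasma cells than in other cells.

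Of 170 tested genes at least 2 times higher in plasma cells than in the other cells, 6 were called (3.53%, against 2.83% over all genes tested). Ighg2b, the constant gene of IgG2b, was at 10.5 and 48.4 CPM in the day 1 libraries and 280.3 CPM at day 6 (log2 fold change 3.15, SE 0.67, edgeR). Its 201 UMIs at day 6 lay in 19 plasma cells, and the highest, with 43, held 1345 UMIs of Igha. The day 6 cell classed as IgG through Ighg2b had 21 UMIs of it and 1.07% immunoglobulin. H2-Q7, a nonclassical MHC class I gene, was at 41.9 and 62.9 CPM in the day 1 libraries and 215 CPM at day 6 (log2 fold change 2.09, SE 0.64, adjusted p = 0.0396, edgeR), with the other cells at 6.56, 5.85 and 186 CPM. Pced1b fell from 115 and 96.8 CPM to 12.6 CPM (log2 fold change -2.91, SE 0.77, adjusted p = 0.00872, edgeR), and the other cells held 7.76, 6.69 and 8.27 CPM. Ighg2c, which rose, and the variable genes Igkv12-46 and Igkv9-124, which fell, were the other 3. Each of the variable genes was at 0 in day 1 replicate 1 and led in 1 plasma cell of day 1 replicate 2 and 1 of day 6. They had 77 and 40 UMIs in day 1 replicate 2 and 3 and 12 UMIs at day 6. These 6 were named after their values were seen. The level relative to other cells was a mean over both day 1 libraries and day 6. A gene could thus pass this filter through the group where it was high, so the share called is no result about these genes. Once those 20 cells of low immunoglobulin were left out, H2-Q7 and Igkv9-124 lost their calls (adjusted p = 0.129 and 0.0849, edgeR).

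None of the 22 tested genes of the unfolded protein response, of 32 of the secretory pathway, of 6 homing receptors, of 10 survival genes and of 8 p53 targets passed the test, with median log2 fold changes of 0.35, 0.06, -0.12, -0.24 and -0.63 against -0.06 over all genes tested. With 2.83% of all genes called, none in lists of this size is close to the background. Of the 18 genes tested for plasma cell identity, Ly6d and Cd38 rose, and both were lower in plasma cells than in other cells at day 6 (252 against 522 CPM, 152 against 315 CPM). Without the 20 cells of low immunoglobulin Cd38 was at 71.8 CPM at day 6 and lost its call (adjusted p = 1.00, edgeR), as did H2-Eb1, Krt14 and Krt20 among the genes below (adjusted p = 0.140, 0.164 and 0.101, edgeR), while Iigp1 was too low to be tested. Of 6 genes of MHC class II, H2-Eb1 rose (335 and 116 CPM to 971 CPM, adjusted p = 0.0396, edgeR), and its level in other cells of day 6 was 1095 CPM. H2-Aa and H2-Ab1 gave log2 fold changes of 2.10 and 2.06, with adjusted p values of 0.0648 and 0.0755 (edgeR). Gbp2 and Iigp1 rose among 10 interferon response genes, and Gbp2, a guanylate-binding protein, was at 21 and 4.84 CPM in the day 1 libraries and 336 CPM at day 6 (log2 fold change 5.09, SE 0.80, adjusted p = 8.03e-08, edgeR) and at 10.3, 14.5 and 577 CPM in other cells. Of markers of other cells, 8 columnar, 7 squamous and 2 fibroblast genes were tested, with median log2 fold changes of 0.79, 1.47 and -1.84. Krt20 of columnar and Krt5, Krt14 and Krt15 of squamous epithelium rose, and the fibroblast marker Mgp fell. Single members went the other way without a call, with log2 fold changes of -1.99 for the columnar Krt18 and 1.02 for the fibroblast marker Dcn (edgeR). Krt5 was at 105 and 38.7 CPM in the day 1 libraries and 807 CPM at day 6, and in other cells at 458, 477 and 2313 CPM. No call fell among 2 genes of the B cell program, 3 immune mediators, 4 light chain constant genes, 5 neutrophil and 3 macrophage markers, and no T cell or endothelial marker was high enough to be tested. Day 6 plasma cells had a median of 21 UMIs of squamous markers, against 12.5 and 8.5 at day 1, and 15, 6 and 5 in the other cells of these libraries. Plasma cells held more UMIs per cell, and in CPM these markers were lower in them than in other cells. In the same order, they stood at 3542, 1132 and 949 CPM in plasma cells and at 10598, 3388 and 4076 CPM in other cells.

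Of 11 cell cycle genes tested Ube2c and Top2a rose at day 6, with Top2a, the topoisomerase of dividing cells, at 52.4 and 38.7 CPM in the day 1 libraries and 209 CPM at day 6 (log2 fold change 2.35, SE 0.66, adjusted p = 0.0167, edgeR). Counted cell by cell over 9 mitotic genes (Mki67, Top2a, Birc5, Cdk1, Ccnb1, Ccnb2, Ccna2, Ube2c and Cenpf), at least 10 UMIs were found in 0 of 10 and 0 of 18 plasma cells of day 1, in 8 of 84 of day 6 and in 5 of 34 of normal stroma. Among other cells this held for 5.15, 3.1, 7.29 and 3.02%, at lower depth. The 5 cells of normal stroma had 10 to 28 mitotic UMIs, 35 to 42.7% immunoglobulin and 0 to 4 UMIs of columnar markers. Of the 8 in day 6, 4 had 12 to 64 mitotic UMIs, 16.7 to 32.2% immunoglobulin and 20 to 39 UMIs of columnar markers. The median day 6 plasma cell held 23.5 UMIs of columnar markers. The other 4 of the 8 had under 10% immunoglobulin, among them the cell with the most mitotic UMIs (85). Mitotic genes summed to 157, 121 and 683 CPM in the tumor plasma cells and 542 CPM in normal stroma, where the other cells had 271 CPM. With the 20 cells of low immunoglobulin left out the sums were 164, 129.8, 587 and 546 CPM, day 6 kept 4 such cells and normal stroma 5, and neither Ube2c nor Top2a was called (adjusted p = 0.0791 and 0.105, edgeR).

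Normal stroma was compared with the tumor libraries with no test, as it is 1 library. Of 6763 genes with at least 20 UMIs over all plasma cells, 116 (1.72%) were at least 2 times above the highest tumor library and 404 (5.97%) at least 2 times below the lowest (20 CPM added). Without the 20 cells of low immunoglobulin these counts were 102 and 210, and without day 1 replicate 1 the lower count was 663. The genes lowest in normal stroma included keratins and cornified envelope genes of squamous epithelium, with Krt6a at 556, 474 and 1075 CPM in tumor plasma cells and 0 in normal stroma, Krt14 at 189, 145 and 752 CPM and 0, and Sprr2a1 at 2830.2, 2686 and 10632 CPM and 130.0 CPM. The other cells of the tumors held 1185 to 2545 CPM of Krt6a. S100a6, Ifitm3, Sprr2a2, Pde4d, Rab25, Spink4 and S100a16 completed these 10, each higher in the other cells of the tumors than in their plasma cells.

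Among the 10 genes highest in normal stroma, Ly6c2, Bst2 and Igkv16-104 stood at least 2 times above the other cells of that library. Ly6c2, a surface antigen of the Ly6 family, was at 41.9, 62.9 and 184 CPM in tumors and 1651 CPM in normal stroma (1489.8 to 1826), with 6.47 CPM in the other cells of normal stroma. It had a UMI in 20, 22.2 and 26.2% of the tumor plasma cells and in 73.5% of those of normal stroma. Bst2 (tetherin), an interferon-induced surface protein, was at 52.4, 29 and 58.6 CPM and 511 CPM (423 to 613), with 49.6 CPM in other cells. Hspa1a, Hspa1b, Egr1 and Fosb, which respond to heat, stress and handling, were also among the 10, and each was higher in the other cells of normal stroma than in its plasma cells (Egr1 1868 CPM against 407 CPM). Apoe and Csf1r are macrophage genes. Over the 9 macrophage markers the plasma cells of normal stroma had a median of 1 UMI, but 2 cells held 433 and 108, and the sum was 2557 CPM against 140 to 314 CPM in tumors. The ribosomal pseudogene Rps18-ps3 (no UMI in tumor plasma cells, 967 CPM in normal stroma and 1814 CPM in its other cells) and the variable gene Igkv16-104, which came from 2 cells, were the last of the 10. Rps18-ps3 can share reads with its parent gene.

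By group, 3 of 19 genes of plasma cell identity were past the fold above tumors (Ly6c2, Eaf2 and Cd79b) and none below. The median log2 ratio of normal to the mean of tumors over the 19 was 0.49, against -0.35 over all genes. Cd79b is also on the list of B cell markers, where it was the 1 of 3 genes above. Over all genes 1.72% were above and 5.97% below, and 1 gene past the fold in a list as short as these is no result about the list. Eaf2, an elongation factor partner induced in plasma cells, was at 94.3, 155 and 79.5 CPM and 459 CPM, and hardly found elsewhere (0.719 to 6.57 CPM). Of 8 homing genes Ccr10 and Cxcr4 were above and Itgb1 below. Cxcr4, the receptor for CXCL12, was at 21, 4.84 and 16.7 CPM and 121 CPM (80.6 to 175), and the other cells of normal stroma had 67.7 CPM. Hspa5, Atf4 and Ddit3 were above among 25 genes of the unfolded protein response (median 0.58). Atf4, a transcription factor of the stress response, was at 94.3, 72.6 and 113 CPM and 494 CPM, but at 769 CPM in other cells of normal stroma. Srprb was above and Mcfd2 below among 33 secretory genes, and Bcl2l11, the proapoptotic BIM, above (31.4, 33.9 and 11.2 CPM and 186 CPM) and Bcl2l1 below among 13 survival genes. Of 9 p53 targets Cdkn1a and Phlda3 were below. Cdkn1a, the cell cycle inhibitor p21, was at 482, 498 and 252 CPM and 78 CPM (46.2 to 123), and at 1119, 909.9 and 406 CPM in the other cells of tumors and 503 CPM in those of normal stroma. Trp53inp1, a p53 target that plasma cells expressed above other cells (16 to 108 CPM), was at 388, 605 and 350.0 CPM and 672 CPM. Among 11 interferon genes Bst2 was above and Ifitm2 and Ifitm3 below. Of the markers of columnar, squamous and neutrophil lists, 5 of 8, 6 of 8 and 3 of 4 were below, and 6 of 7 macrophage and 3 of 5 fibroblast markers above. Of 6 genes of the B cell program Cd83 was above and Ebf1 below, and of 6 immune mediators Lgals1 (galectin-1) was above. None of 8 genes of MHC class II and of 18 cell cycle genes was past the fold. Among constant genes Ighg1, Ighg2b and Iglc3 were above, and all 26 UMIs of Ighg1 came from 1 cell with 2109 UMIs of Igha. Leaving out immunoglobulin from the totals, which took 46.8% of the UMIs of normal plasma cells and 30 to 35.6% of those of tumors, gave 228 genes above and 424 below.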

How the data were processed

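Single-cell libraries of 4 AOM/DSS tumors and 1 normal colon were analyzed. Per the labels and the study's methods, the authors deposited raw UMI counts per cell and gene, made by dropEst on GRCm38 with no normalization. Names of 1 file with dots or a leading X in place of hyphens and digits were matched to the others, and names that spreadsheets turn into dates were left out of the comparison with normal stroma. Cells with under 500 genes or over 15% mitochondrial counts were removed. Doublets were not called. Counts of plasma cells were summed per library (at least 10 cells, 95399 to 717059 UMIs) and tested with edgeR 4.0.16 in R 4.3.3 (TMM, filterByExpr, quasi-likelihood F test), with DESeq2 1.42.0 as an alternative. In simulated data, the edgeR step called 29% of the 369 tested genes set to a log2 fold change of -3. It called 73.6% of the 497 tested genes set to 3. Genes set to a fold that the filter on low counts removed are not in these shares. Shares were compared by exact permutation tests. The design planned late against early over 4 libraries, but day 3 held no plasma cell, and a fit of IgA against IgM or IgG cells could not be made, since only day 6 had 5 or more such cells. Intervals cover counting error only. The members and gene lists were chosen with earlier results of these data known. The text names rule genes, constant genes, up to 4 genes per list by level (with further members chosen after their values were seen), and up to 10 genes each way by size of change (a planned demand for the same direction in both library structures could not be met, as day 6 has 1 structure). Python 3.11.15 with scipy 1.17.1 and matplotlib 3.10.9 was used.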

Additional observations from a re-analysis of the deposited data

How the results depend on the processing

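Shares of plasma cells kept their order (day 3 lowest, day 6 above day 1) with at least 10 or 50 immunoglobulin UMIs, with 1 or 3 UMIs of Mzb1 and Derl3, without the filter on cells and after thinning, but a single UMI of Mzb1 or Derl3 raised day 6 to 230 cells (8.14%). Leaving out plasma cells with 5 or more epithelial UMIs left 2, 0, 0, 0 and 21 cells and turned the late minus early difference to -0.134 percentage points, and that list was then too small for the tests of expression. Without each tumor library in turn this difference ranged from -1.04 (without day 6) to 1.93 points (without day 3). The difference in plasma cells among plasma and B cells turned to 1.125 points with a single UMI of Mzb1 or Derl3 and ranged from -21.1 to -17.2 without each day 1 library. The difference in IgM stayed at 5 points and in IgG at 2.5 points without each day 1 library, and at 1.43 and 2.86 points with at least 20 heavy chain UMIs. Leading kappa genes fell to 0, 4 and 7 different ones in day 1 replicate 1, day 6 and normal stroma with at least 10 UMIs asked for. For day 6 against day 1, 22 genes were called by DESeq2, 69 with at least 50 immunoglobulin UMIs, 47 without cells under 10% immunoglobulin (9 cells in day 1 replicate 1 in both of these) and 6 among genes at least 2 times higher in plasma cells, and 117 to 124 with immunoglobulin genes left out, no filter on low counts (94 of the 121 among them), or RLE scaling. Ceacam20, Iigp1 and Notum lost their calls with at least 50 immunoglobulin UMIs, where 4 more of the 20 named genes were too low to be tested, and Atp12a, Cyp2f2, Mt4 and Ascl4 with DESeq2, which called 9 and gave no adjusted p for 7 (Ido1, Xist, Ceacam20, Iigp1, Plet1, Ddx3y and Cep112). The causes were not tested. Against normal stroma, 228 genes were above without immunoglobulin in the totals, 210 were below without cells under 10% immunoglobulin, and without each tumor library 139 to 153 were above and 423 to 663 below (663 without day 1 replicate 1). No paired analysis was possible because the groups compared share only replicate number 1, and a block for the library structure left no residual degrees of freedom. Leaving out a day 1 library or day 6 also left no degrees of freedom for the expression test. Depth limits day 1 most, with 10 and 18 plasma cells.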

Other observations

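Camk2b, a subunit of a calcium-dependent kinase, stood out among genes higher in plasma cells and was named after its values were seen. Whether its counts are expression of the gene or reads placed there by the counting was not tested. It reached 17023, 19929 and 7660.5 CPM in the plasma cells of day 1 replicate 1, day 1 replicate 2 and day 6, against 1214 CPM in normal stroma. Single plasma cells held 19 to 519 UMIs in day 1 replicate 1 (median 112.5), 6 to 633 in day 1 replicate 2 (median 207.5), 0 to 281 in day 6 (median 45.5) and 0 to 89 in normal stroma (median 1.5). The other cells of these libraries held 2188, 1880.2, 487 and 134 CPM, lowest in normal stroma as in the plasma cells. Serpina3f, Ebf1 and Ptprcap were the other 3 genes at least 2 times lower in normal stroma and at least 2 times higher in plasma cells than in other cells of each tumor library. Ebf1, an early B cell factor, was at 304, 145 and 170.1 CPM and 39 CPM. Cd69, a retention receptor of tissue lymphocytes, was at 0, 0 and 29.3 CPM and 290.4 CPM, and Ctla4, an inhibitory receptor of T cells, at 31.4, 0 and 9.76 CPM and 134 CPM, while the T cell markers summed to 47.7 CPM in the plasma cells of normal stroma with 8 of 10 at 0.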
